A study of Mus musculus with 6 samples.

Results

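The circadian clock and PAR bZIP genes are the 10 genes Per1, Per2, Per3, Cry1, Cry2, Dbp, Tef, Hlf, Nr1d1 and Arntl (also called Bmal1). They were chosen by name, as every probe set that the platform annotation pairs with 1 of these genes alone, which gave 22 of the 45101 probe sets on the array. Of the 22 probe sets 18 passed the filter of an intensity of at least 16 on at least 3 of 6 arrays. All 10 genes kept at least 1 probe set and were among the 12994 genes tested. The RNA was that of small-intestinal epithelium, released with EDTA, of C57BL/6 mice at 14 days of age. The 3 N-cadherin replacement samples carried the genotype Ecadflox/Ncad;Vil-Cre: Vil-Cre, a recombinase driven by the villin promoter in gut epithelium, deletes a floxed E-cadherin allele and leaves an allele that carries N-cadherin. The 3 control samples came from E-cadherin-positive littermates, labelled only as control, so which of these alleles they carried is not known here. The labels give no time of day for the collection of the cells and do not say whether each sample was 1 animal.

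The clock of mammalian cells is a feedback loop of transcription. Arntl and its partner Clock form an activator that binds E-boxes in the Per and Cry genes, and the PER and CRY proteins then hold that activator back. In a second loop the nuclear receptor encoded by Nr1d1 represses Arntl at ROR elements, where ROR receptors activate it. Dbp, Tef and Hlf encode the PAR bZIP factors, activators that bind D-boxes and carry the rhythm to output genes, many of them in drug and lipid metabolism. In the gut epithelium these transcripts cycle over the day, and feeding time can shift their phase. Dbp and Arntl peak at opposite times in most mouse tissues.

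The DNA around the transcript starts shows which members carry these elements close to the start. RefSeq windows of build GRCm38.p6, 300 bases each with 250 before the start and 50 after it, were matched for 9 of the 10 genes, 12 windows in all; Per2 was not matched. The E-box CACGTG was found in 4 of them: 1 of 2 starts of Per1, the Cry1 start and both starts of Tef. It is present in 7.15% of the 32851 windows of all genes. The D-box TTATGTAA was found at 2 places in the Per3 window and in no other member window, and 0.938% of all windows hold it. TAGGTCA, the core of a ROR element, was found in 1 of 2 Arntl windows, 31 to 37 bases after the start, and 2.61% of all windows hold it. All were searched on both strands, no match overlapped another, and the motifs were chosen with these sequences in view. The windows of Cry2, Dbp, Hlf and Nr1d1 held none of these 3 letter strings, which says only that these letters are not in this stretch. The windows with a match are shown here 5′ to 3′ along the gene, with the matched letters in capitals: the E-boxes of Per1 (chr11:69098699-69098998, plus strand), Cry1 (chr10:85185005-85185304, minus strand) and Tef (chr15:81802423-81802722 and chr15:81811164-81811463, plus strand), the D-boxes of Per3 (chr4:151044616-151044915, minus strand) and the ROR element core of Arntl (chr7:113207261-113207560, plus strand).
Per1, first start: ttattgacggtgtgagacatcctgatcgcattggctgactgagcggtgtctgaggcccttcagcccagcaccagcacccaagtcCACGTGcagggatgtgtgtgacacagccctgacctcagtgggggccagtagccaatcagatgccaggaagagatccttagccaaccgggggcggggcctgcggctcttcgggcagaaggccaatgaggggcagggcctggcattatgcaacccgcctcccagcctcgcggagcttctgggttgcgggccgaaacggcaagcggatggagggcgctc
Cry1: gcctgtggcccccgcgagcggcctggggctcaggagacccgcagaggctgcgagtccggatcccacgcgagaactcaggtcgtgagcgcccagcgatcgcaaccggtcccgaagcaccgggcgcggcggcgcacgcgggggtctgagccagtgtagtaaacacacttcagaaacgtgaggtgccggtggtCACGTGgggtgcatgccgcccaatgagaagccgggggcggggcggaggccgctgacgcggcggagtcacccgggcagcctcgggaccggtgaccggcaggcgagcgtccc
Tef, first start: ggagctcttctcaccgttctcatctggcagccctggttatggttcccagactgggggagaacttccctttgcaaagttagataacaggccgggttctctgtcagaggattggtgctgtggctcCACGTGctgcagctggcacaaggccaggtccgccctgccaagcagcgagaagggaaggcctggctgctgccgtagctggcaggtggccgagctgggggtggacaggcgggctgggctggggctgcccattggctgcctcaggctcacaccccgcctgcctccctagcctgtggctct
Tef, second start: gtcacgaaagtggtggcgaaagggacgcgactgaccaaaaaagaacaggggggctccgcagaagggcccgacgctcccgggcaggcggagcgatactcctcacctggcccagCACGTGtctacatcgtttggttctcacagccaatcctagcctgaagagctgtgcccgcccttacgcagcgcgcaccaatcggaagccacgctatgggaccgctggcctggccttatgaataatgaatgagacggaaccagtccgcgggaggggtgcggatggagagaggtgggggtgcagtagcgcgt
Per3: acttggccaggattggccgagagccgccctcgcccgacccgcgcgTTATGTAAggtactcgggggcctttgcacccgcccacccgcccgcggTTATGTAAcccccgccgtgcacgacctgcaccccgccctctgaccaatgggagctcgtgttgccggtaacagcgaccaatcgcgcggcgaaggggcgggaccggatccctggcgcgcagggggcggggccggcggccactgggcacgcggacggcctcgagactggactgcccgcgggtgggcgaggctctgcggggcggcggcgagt
Arntl, second start: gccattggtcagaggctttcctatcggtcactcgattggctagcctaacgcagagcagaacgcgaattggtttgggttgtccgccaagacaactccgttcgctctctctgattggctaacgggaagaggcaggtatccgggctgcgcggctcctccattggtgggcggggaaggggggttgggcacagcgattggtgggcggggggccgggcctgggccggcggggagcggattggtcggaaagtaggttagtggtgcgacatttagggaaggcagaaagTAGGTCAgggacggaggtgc

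**Figure D1:**
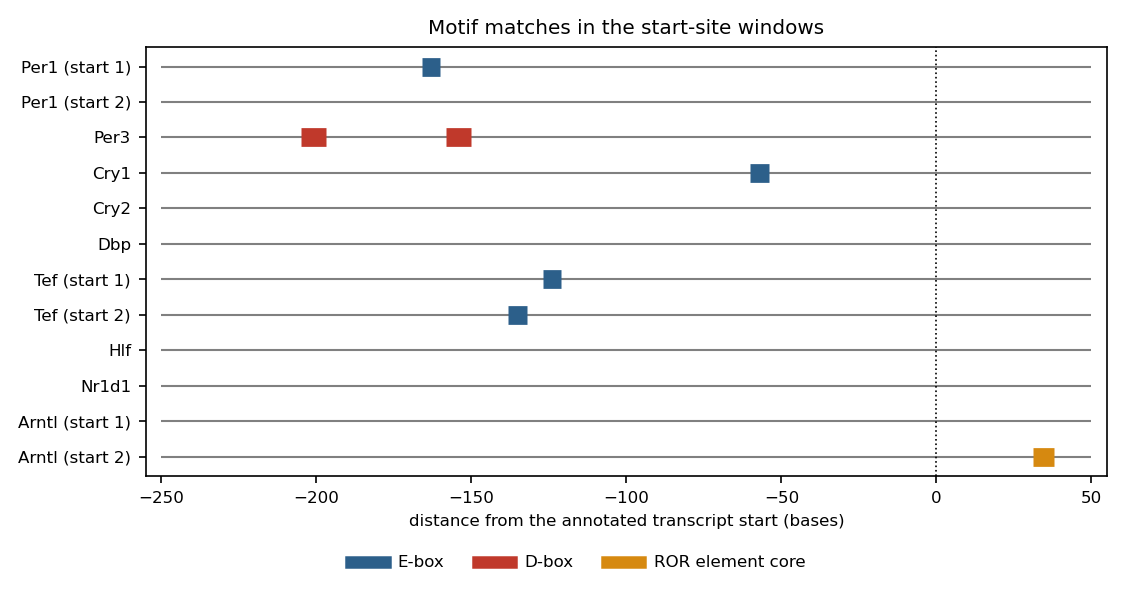
Motif matches in the 12 start-site windows. Each line is a window from 250 bases before to 50 bases after an annotated transcript start (horizontal axis, distance in bases), and boxes mark an E-box (blue), a D-box (red) or a ROR element core (orange). The 4 E-boxes lie from 166 to 55 bases before a start, both D-boxes lie before the Per3 start, and the ROR element core lies after the second Arntl start.

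The values are linear array intensities that the authors had scaled, with a trimmed mean (2% cut at each end) equal on all arrays. Values under 16 were set to 16 before log2 was taken. That floor was reached by 55.1% to 61.8% of probe sets, depending on the array. Control 2 and control 3 were nearly alike, with an SD of their log2 ratio of 0.115 over 5109 bright probe sets against 0.347 to 0.564 for other pairs within a group, and were averaged and counted as 1 replicate. This leaves n = 3 replacement and n = 2 control replicates, and the p-values reflect only how these few samples vary. Cdh1, the E-cadherin gene, had intensities of 1073, 1175 and 1357 in the replacement arrays, against 2757, 2335 and 2204 in the control arrays, 2.09-fold lower; whether its probes lie in the deleted part is not known here. Both probe sets of Cdh2, the N-cadherin gene, stayed under the floor on every array, and whether they can read the transcript of the N-cadherin allele is not known here. All 10 epithelial marker genes were measured; the keratin genes Krt19 (1.27, adjusted p = 0.0103) and Krt20 (1.35, adjusted p = 0.0274) were higher in replacement and none was lower. Xist and Y-linked transcripts put replacement 2, replacement 3 and control 1 on one side (Xist high) and replacement 1, control 2 and control 3 on the other. Differences within each side are given below where they bear on a gene. Each rests on a lone array in 1 group, control 1 or replacement 1, and has no test. In bulk RNA, fewer cells that express a gene and less RNA per cell cannot be told apart.

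Dbp, Per2, Cry2 and Per1 fell in the replacement epithelium, by 2.04-fold to at least 2.54-fold. None rose. Per3, Cry1 and Tef had lower values on every replacement array than on any control array but did not pass the test, Nr1d1 had higher ones and did not pass either, and Hlf and Arntl overlapped between the groups. The members therefore split 4 lower, 0 higher and 6 not called at a limma adjusted p under 0.05 over all 12994 genes, where 4.66% of all genes were lower, 4.46% higher and 9.12% called in either direction. Dbp counts among the 4 lower calls, but the probe set that stood for it passed the filter through its control arrays alone. Its second kept probe set reached the floor on 5 of 6 arrays and gave -0.62, which did not pass over all probe sets (limma adjusted p = 0.229). Per1, Per2 and Cry2 reached the floor on every array of both groups. The median difference over the 10 members was -0.58 on the log2 scale (replacement minus control), beside -0.02 over all genes tested. The arrays of 7 members lay wholly lower in the replacement group and those of 1 wholly higher, where 18.8% and 17.8% of all genes did so. All 4 calls were lost when dim probe sets were not filtered out (adjusted p = 0.0930 for Per2 and 0.113, 0.174 and 0.201 for Dbp, Cry2 and Per1). They were lost too in a fit without eBayes (0.138, 0.156, 0.208 and 0.228 in the same order). Of all genes tested only 0.89% were called with no filter and 0.246% without eBayes, beside 9.12% in the reported fit.

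**Figure D2:**
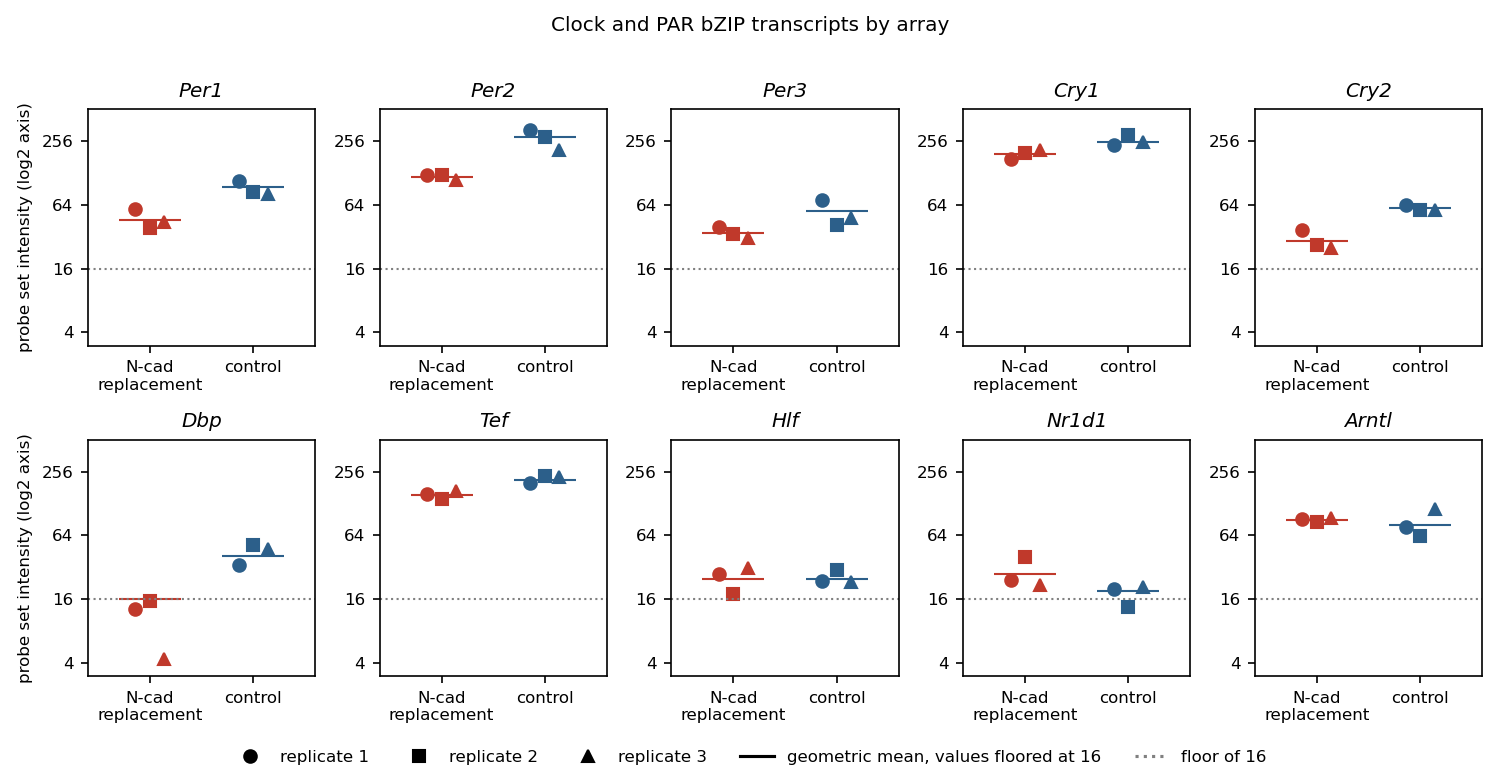
Probe set intensity (vertical, log2 axis) of the 10 genes on each array, with the N-cadherin replacement arrays in red and the control arrays in blue; symbols mark the replicate, bars the geometric mean after flooring with control 2 and control 3 counted once, and the dotted line the floor of 16. Per1, Per2, Cry2 and Dbp show gaps between the groups, with every Dbp replacement value under the floor, while Hlf and Arntl overlap.

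The period genes encode the PER proteins of the negative limb. Per2 had intensities of 122.6, 123.2 and 109.7 in the replacement arrays, against 324.6, 282.7 and 213.2 in the control arrays. The replacement arrays were tightly grouped, and the lowest control array stood well above the highest of them. The difference was -1.25 (SE 0.240, 95% interval -1.79 to -0.72, n = 3 and 2), 2.39-fold lower, with a limma adjusted p of 0.0124. It was -1.48 among the Xist-high arrays and -1.0 among the Y-positive ones. Per2 had 2 other probe sets. One read 21, 18.1 and 25.5 in replacement, against 45.4, 22.2 and 31.8 in control, a difference of -0.70 (SE 0.307). The other read 40.7, 38.8 and 37.2 in replacement, against 87.5, 29 and 44.2 in control, -0.53 (SE 0.376). Their groups overlap, neither passed the test over all probe sets (adjusted p = 0.266 and 0.518), and the mean of the 3 probe sets had a difference of -0.83 that did not pass (adjusted p = 0.102). The Per2 call was also lost without replacement 3 (-1.20, adjusted p = 0.0712), where 2.88% of all genes were called. It was lost too without control 1 (-1.05) and without control 2 and control 3 together (-1.46). Those fits leave 1 control replicate, and nearly all calls over all genes were lost in them. The loss there is thus not particular to Per2 or to the genes below.

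Per1, which also responds directly to glucocorticoids and other acute signals, was read by 1 probe set. It had 58.3, 38.7 and 44.1 in the replacement arrays, against 107.1, 84.1 and 82.2 in the control arrays, with no overlap. Per1 fell by 1.03 on the log2 scale (SE 0.266, 95% interval -1.62 to -0.43), 2.04-fold, with a limma adjusted p of 0.0431. It differed by -1.37 among the Xist-high arrays and by -0.51 among the Y-positive ones. The Per1 call was lost without replacement 2 (-0.90, at an adjusted p of 0.143), without replacement 3 (-0.99, 0.152) and after median scaling of the arrays (-0.99, adjusted p = 0.0653). With 1 control replicate left it was lost too, at -0.84 without control 1 and -1.21 without control 2 and control 3.

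Per3, the third period gene and the one with 2 D-boxes before its start, had 6 probe sets, of which 4 passed the filter. The one that stood for the gene had 39.8, 34.3 and 30.9 in replacement, against 70.9, 41.3 and 48.4 in control. The groups do not overlap, but replacement 1 and control 2 nearly meet. The difference was -0.69 (SE 0.273, adjusted p = 0.151), and it was -1.12 among the Xist-high and -0.17 among the Y-positive arrays. Without control 1 it was -0.36, and without control 2 and control 3 it was -1.03. The other 3 kept probe sets lay near the floor and gave -0.37, 0.03 and 0.17, so the probe sets of Per3 do not share a direction.

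The cryptochromes Cry1 and Cry2 are the partners of the PER proteins and the stronger repressors of the activator. Cry2 had 37.3, 27 and 25.3 in the replacement arrays, against 63.6, 56.9 and 57.4 in the control arrays, with every replacement value well under every control value. Cry2 fell by 1.03 on the log2 scale (SE 0.257, 95% interval -1.61 to -0.46), 2.05-fold, with a limma adjusted p of 0.0365. The difference was -1.28 among the Xist-high arrays and -0.62 among the Y-positive ones. Its call was lost without replacement 2 (-0.97, at an adjusted p of 0.121) and without replacement 3 (-0.93, 0.142). Median scaling (-0.996, adjusted p = 0.0703) and a pseudocount of 16 in place of the floor (-0.74, adjusted p = 0.0523) lost it as well. With 1 control replicate left it was lost too, at -0.96 without control 1 and -1.11 without control 2 and control 3.

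Cry1, with an E-box close to its start, had 173.3, 197.1 and 212.7 in replacement, against 234.2, 296.4 and 254.7 in control. The arrays did not overlap, yet the gap was narrow, and the difference of -0.39 (SE 0.235, 95% interval -0.92 to 0.14, adjusted p = 0.354) did not pass.

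The PAR bZIP genes carry the rhythm to D-box targets. The Dbp transcript has one of the widest daily swings of mammalian tissues. The probe set that stood for it had 12.9, 15.5 and 4.3 in the replacement arrays, all under the floor, against 33.3, 51.7 and 47.5 in the control arrays. With those values set to the floor, Dbp was lower in replacement by at least 2.54-fold, a log2 difference of -1.34 that is a bound (SE 0.252, adjusted p = 0.0113). The replacement group has no spread of its own there, and the probe set passed the filter through its control arrays alone, so its p and its place among the members by p rest on the floor. The suffix of the probe set marks a sequence that may be shared with other transcripts. The second Dbp probe set had 21.6, 13.6 and 17.6 in replacement, with 1 of 3 arrays under the floor, against 25.7, 33.7 and 28 in control. It too showed no overlap, with a difference of -0.62 (SE 0.249) that did not pass over all probe sets (adjusted p = 0.229). The Dbp difference of the first probe set was -1.06 among the Xist-high and -1.63 among the Y-positive arrays. Its call was lost without replacement 3 (-1.34, adjusted p = 0.0644). With 1 control replicate left it was lost too, at -1.63 without control 1 and -1.06 without control 2 and control 3.

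Tef, with an E-box before each of its starts, was read well above the floor by its leading probe set. That probe set had 157.4, 141.4 and 167 in replacement, against 198.7, 231.1 and 228.9 in control. All replacement values lay under all control values, and the difference of -0.46 (SE 0.231, 95% interval -0.98 to 0.05, adjusted p = 0.256) did not pass. Of its other probe sets one stayed under the floor on every array, so no difference was fitted for it, and the other scattered from 4.8 to 35.7 within the replacement group. Hlf, the third factor, had 27.3, 17.9 and 31.1 in replacement, against 23.7, 30.1 and 23 in control. These groups overlap fully, with a difference of -0.01 (SE 0.284, 95% interval -0.65 to 0.63) whose sign depended on the setting. A second Hlf probe set reached the floor on control 2 and control 3 only, at 16.5 and 17.1.

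Nr1d1, the repressor of Arntl, lay close to the floor. It had 24.3, 40.3 and 21.5 in the replacement arrays, against 19.9, 13.6 and 20.9 in the control arrays. The replacement arrays stood above the control arrays, with the nearest pair at 21.5 and 20.9. The difference was 0.53 (SE 0.300, 95% interval -0.14 to 1.21, adjusted p = 0.319). Arntl, the activator, had 91.7, 85.6 and 93.3 in replacement, against 76.2, 63.3 and 113.8 in control. The control arrays lay on both sides of the replacement arrays, and control 2 and control 3, nearly alike over bright probe sets, lay at its opposite ends. The difference was 0.16 (SE 0.225, 95% interval -0.34 to 0.67, adjusted p = 0.715), and the second Arntl probe set gave 0.26 (SE 0.264), neither past the threshold.

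**Figure D3:**
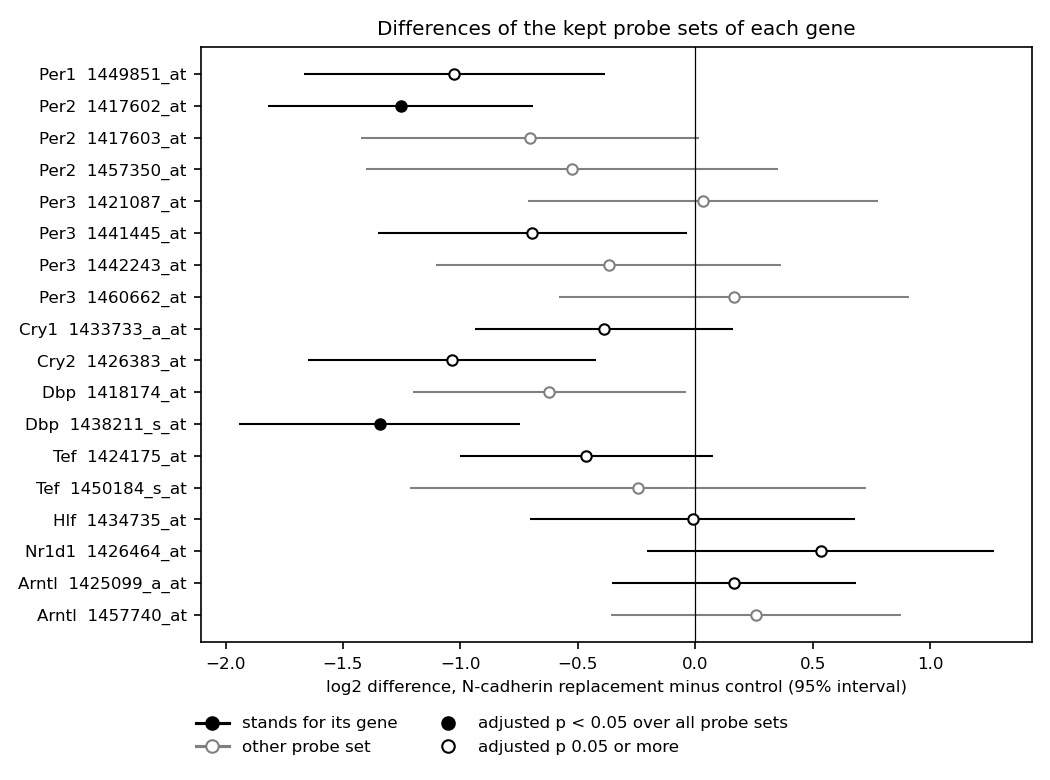
Log2 difference, N-cadherin replacement minus control (horizontal), with its 95% interval for the 18 kept probe sets (rows), fitted and adjusted over all kept probe sets; black marks the probe set that stands for its gene, and filled points have an adjusted p under 0.05. In this wider fit 4.04% of all probe sets were called (1.83% lower, 2.2% higher), and only Per2 (adjusted p = 0.0354) and Dbp (0.0345) kept a filled point; Per1 (0.0923) and Cry2 (0.0811) did not.

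Of 16 other clock components 13 were tested. Fbxl21 fell, none rose, and 12 were not called, beside the 9.12% called over all genes, and the median difference was -0.05. Fbxl21 encodes an F-box protein that marks cryptochromes with ubiquitin. It had 28.5, 18 and 8.6 in replacement, with 1 of 3 arrays under the floor, against 53.8, 64 and 45.7 in control, lower by at least 2.67-fold (-1.42 on the log2 scale as a bound, SE 0.288, adjusted p = 0.0161). With 1 control replicate left that call was lost, at -1.42 without control 1 and -1.42 without control 2 and control 3. The call was also lost without replacement 2 (-1.34, at an adjusted p of 0.0681) and likewise replacement 3 (-1.25, 0.0870). It was lost too with no filter (adjusted p = 0.181) and without eBayes (adjusted p = 0.214). Nfil3, a repressor that competes with the PAR bZIP factors for D-boxes, had a difference of -0.87 (SE 0.286, adjusted p = 0.0930) with no overlap. Npas2, which can stand in for Clock, had -0.81 (SE 0.301, adjusted p = 0.133). The Npas2 difference was -0.37 without control 1 and -1.25 without control 2 and control 3, and -1.33 among the Xist-high and -0.21 among the Y-positive arrays.

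Nr1d2, the close relative of Nr1d1, had 92.1, 205.8 and 194.5 in replacement, against 97.5, 49.7 and 53 in control. Replacement 1 lay under control 1, and the difference of 1.13 (SE 0.401, adjusted p = 0.119) passed only with sex as a covariate, with array weights, with 6 separate arrays and without replacement 1 (1.5, adjusted p = 0.0288). Timeless, known in mammals mainly for its part at replication forks, had 0.64 (SE 0.296, adjusted p = 0.222). Clock itself (0.28, SE 0.361) did not pass. Rorb did not pass the filter.

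Of 12 genes known as clock outputs in mouse tissues 10 were tested: 2 rose, none fell and 8 were not called, with a median difference of 0.29, where 4.46% of all genes rose and 4.66% fell. Alas1, the first enzyme of heme synthesis and a known target of the PAR bZIP factors in mouse liver, had 587.6, 615.1 and 478.1 in replacement, against 270.2, 262.9 and 270.8 in control. It rose 2.07-fold (log2 difference 1.05, SE 0.236, adjusted p = 0.0242), in the direction opposite to Dbp. Hspa1b, an inducible heat shock protein, rose 2.17-fold (1.12, SE 0.225, adjusted p = 0.0152), although its probe sets may also read its near-identical neighbour Hspa1a. Both calls were lost without control 1 (adjusted p = 0.187 for Alas1 and 0.131 for Hspa1b), without control 2 and control 3 (0.200 and 0.161), without replacement 2 (0.0899 and 0.0588) and without replacement 3 (0.0621 and 0.0745). The Alas1 call was also lost after median scaling (1.09, adjusted p = 0.0514) with the mean of its probe sets (0.82, adjusted p = 0.0588) and with no filter (adjusted p = 0.0960). Without eBayes neither passed (adjusted p = 0.140 for Alas1 and 0.0797 for Hspa1b).

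Usp2, a deubiquitinase whose transcript is rhythmic in many mouse tissues, lay at the threshold. It had 53.3, 50.4 and 47.5 in replacement, against 98.9, 82.5 and 82.3 in control, a difference of -0.84 (SE 0.231, adjusted p = 0.0522), and its second probe set gave -0.81. It passed with a filter at 64, which it met through its control arrays alone. It passed too with quantile normalization, 6 separate arrays, array weights, the replicate block and without replacement 1 (adjusted p = 0.0484). Coq10b (0.70, SE 0.260), the nocturnin gene Noct (0.44, SE 0.252) and the glucose transporter gene Slc5a1 (-0.41, SE 0.225) did not pass. A second Slc5a1 probe set had 919.1, 743.9 and 877.2 in replacement, against 1689.2, 1526.4 and 1415.5 in control, a difference of -0.90 (SE 0.235) that did not pass over all probe sets (adjusted p = 0.0871).

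Since Per1 also responds to glucocorticoids, 8 genes known for that response were read beside it. Tsc22d3 fell, Fkbp5 rose and 6 were not called, with a median difference of -0.38, where 4.66% of all genes fell and 4.46% rose. Tsc22d3, which encodes the glucocorticoid-induced leucine zipper protein, had 157.2, 188.4 and 149.2 in replacement, against 477, 347.3 and 355.4 in control, 2.49-fold lower (-1.32, SE 0.251, adjusted p = 0.0121). Fkbp5, a co-chaperone that dampens the glucocorticoid receptor, had 118.1, 132.2 and 142.4 in replacement, against 69.9, 39.8 and 42.4 in control, 2.44-fold higher (1.28, SE 0.279, adjusted p = 0.0214). Klf9 (-0.90, SE 0.255, adjusted p = 0.0592), Dusp1 (-0.87, SE 0.316), Errfi1 (0.67, SE 0.284) and Sgk1 (-0.43, SE 0.306) did not pass. Klf9 passed with eBayes trend and robust options, a filter at 64, a pseudocount of 16, 6 separate arrays, array weights and the replicate block (adjusted p = 0.0230). The kept probe sets of Klf9 ranged from -1.07 to 0.29, and their mean had a difference of -0.60 (limma adjusted p = 0.147). Dusp1 passed with 6 separate arrays alone (adjusted p = 0.0454). The Sgk1 difference was -0.11 without control 1 and -0.76 without control 2 and control 3. The Tsc22d3 call was lost without control 1 (-1.10, adjusted p = 0.170), without control 2 and control 3 (-1.54, adjusted p = 0.128) and without replacement 3 (-1.25, adjusted p = 0.0716), and with the mean of its probe sets (-0.70, adjusted p = 0.0890). The Fkbp5 call was lost without replacement 2 (1.28, at an adjusted p of 0.0754) and likewise replacement 3 (1.22, 0.107). With 1 control replicate left it was lost too, at 1.67 without control 1 and 0.90 without control 2 and control 3. Both calls were lost with no filter (adjusted p = 0.113 for Tsc22d3 and 0.186 for Fkbp5) and without eBayes (0.156 and 0.217).

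**Figure D4:**
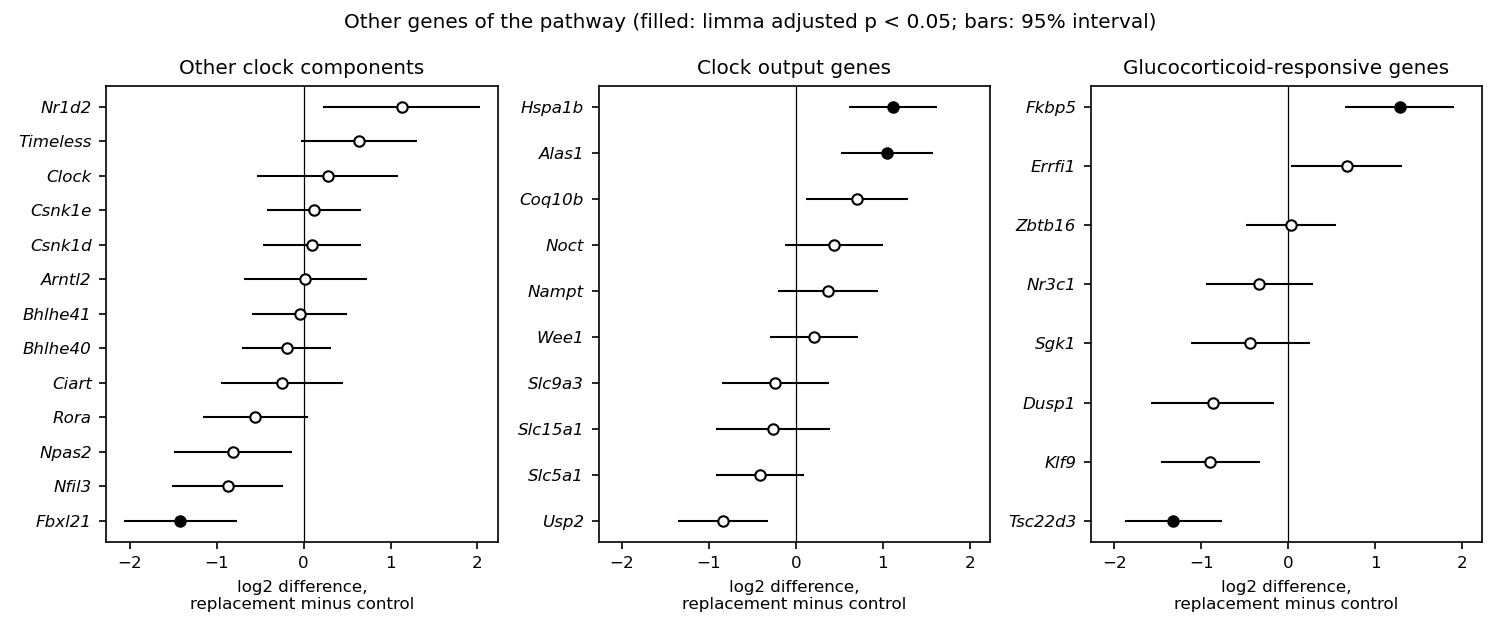
Log2 difference, N-cadherin replacement minus control (horizontal), with its 95% interval for the tested genes of 3 lists: 13 other clock components, 10 clock output genes and 8 glucocorticoid-responsive genes. Filled points have a limma adjusted p under 0.05: Fbxl21 and Tsc22d3 lie lower, and Hspa1b, Alas1 and Fkbp5 lie higher in replacement.

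Likeness was read for Dbp, the member of smallest p, a place that rests on its floored values. The genes whose values over the 6 arrays were most like those of Dbp were Rfesd (Pearson r = 0.999), Mfsd4b1 (0.998), Mfsd11 (0.998), Rnf130 (0.998) and Mylk3 (0.998). These values describe 6 arrays in 2 groups and have no test. All 3 replacement values of Dbp stood at the floor, so the likeness reads the gap between the groups and the order of the control arrays, where control 1 was lowest for each of these genes.

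Markers of other cell types were read beside these results. The summed intensity of 3 nerve and glia markers on the array, of 5 listed, was 59.6 to 69.4 in the replacement arrays and 113.1 to 151.4 in the control arrays, with S100b lower (-1.65, adjusted p = 0.0109), Sox10 not called (-0.35) and Elavl4 under the floor on every array. Immune markers summed to 403.6 to 596.1 in replacement and 359.8 to 761.8 in control (7 of 10 measured, Cd3e and Cd3g under the floor on every array), and fibroblast markers to 328.5 to 428.9 and 162.3 to 1086.8 (5 of 6 measured). Liver and pancreas markers (5 of 6 measured, none called) summed to 353.9, 1445.8 and 1059.5 in replacement 1, 2 and 3, against 686.3, 301.1 and 315.2 in control 1, 2 and 3. The highest sum of the fibroblast, immune, endothelial, smooth muscle and nerve lists was that of control 1. The part of other cell types in the differences was not tested.

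**Figure D5:**
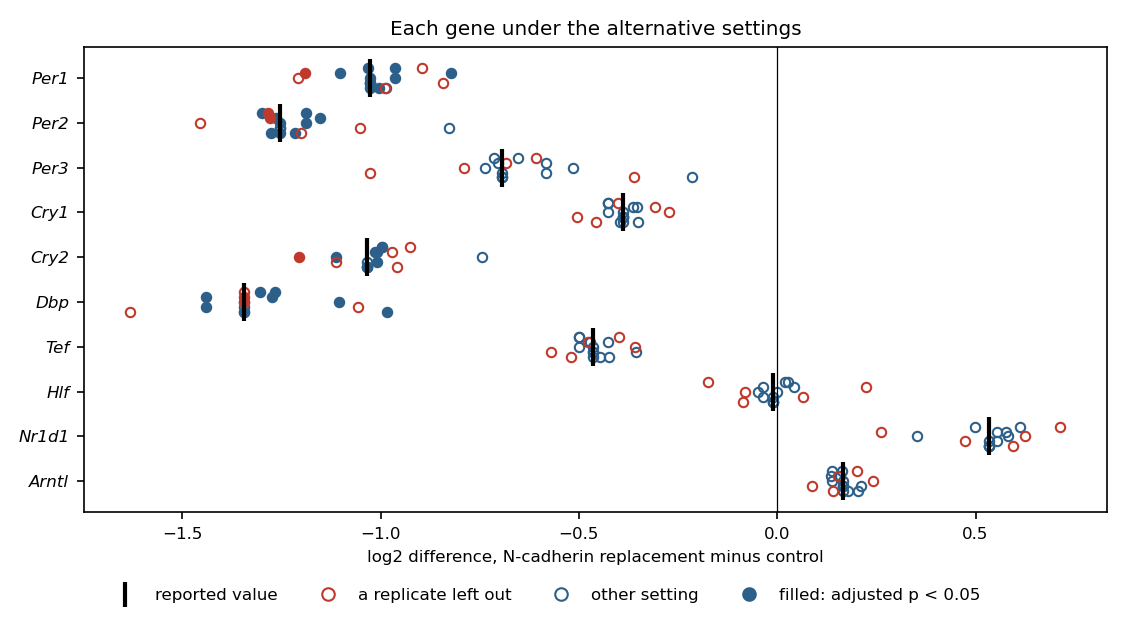
Log2 difference of the 10 genes, N-cadherin replacement minus control (horizontal), under the alternative settings: black bars mark the reported value, red circles settings that leave out a replicate, blue circles the other settings, and filled circles an adjusted p under 0.05. Per1, Per2, Cry2 and Dbp stayed below 0 in each setting shown, Hlf fell on both sides of 0, and no circle of Per3, Cry1, Tef, Hlf, Nr1d1 or Arntl is filled.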

How the data were processed

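Arrays of 3 N-cadherin replacement and 3 control samples were grouped by title. The deposited values are linear intensities per probe set, scaled by the authors, as their equal trimmed means show; GCRMA and limma appear in the submitters' processing notes without version, and the sources used here do not give the summary method. Intensities under 16 were set to 16 and log2 was taken. Probe sets reaching 16 on at least 3 arrays were kept (26630, 59.0%, Affymetrix controls left out). The platform annotation gave 34945 probe sets 1 gene symbol, 932 several and 9160 none; 34741 were matched by Entrez identifier to the GRCm38.p6 gene table. Each gene was read by its kept probe set of highest mean.

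Control 2 and control 3 were averaged: their SD of 0.115 lay inside the range that 18 hybridization control probe sets showed over all array pairs (0.0812 to 0.134), though above that of the same pair (0.0824). The fit was limma 3.58.1 (lmFit, eBayes, R 4.3.3), with Benjamini-Hochberg adjustment over all genes tested and a threshold of 0.05. It was also run on simulated normal values with no floor, which cannot show how it treats floored genes. Differences on the floored log2 scale understate those of dim transcripts, and precision is limited by how few arrays there are. Named were the members, Cdh1 and Cdh2, and from each of 3 lists all genes past the threshold and up to 4 others of smallest p; Clock was added after its values were seen, as were Sox10, S100b and other markers outside that rule. The 5 genes most like Dbp, the member of smallest p, were ranked by Pearson correlation. The members, lists and tests were chosen with earlier results of these data known. Alternatives changed the eBayes options, filter, floor, scaling, probe set choice, replicates and covariates.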

Additional observations from a re-analysis of the deposited data

How the results depend on the processing

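The 28 genes named by rule, under up to 17 alternatives each, gave 468 values; 378 kept their direction and their side of the threshold, 64 lost a call, 20 gained one, and 6, all of Hlf, changed sign. Hlf had 4.97e-04 with a pseudocount of 16, 0.0426 with quantile normalization, 0.0276 with scaling to the array medians, 0.0191 with sex as a covariate and 0.0637 without control 2 and control 3, and ranged from -0.18 without replacement 3 to 0.22 without replacement 2, with adjusted p of 0.714 or more. No member was called higher under any of the 18 settings (limma; none of the 2 members with positive differences had an unadjusted p under 0.05 in the reported fit). The 4 lower calls became 0 with no filter on dim probe sets, where 0.89% of all genes tested were called, and 0 without eBayes (0.246%). They became 2 with a filter at 64 (15.6%), where 5 members remained in the test, and 2 with scaling to the array medians (6.42%). The filter at 64 left the calls of Per1 and Per2, and Per1 met that filter through its control arrays alone. In the reported fit the share was 9.12%. The lower calls were 4 without replacement 1 (12.8% of all genes called), 2 without replacement 2 (4.1%) and 0 without replacement 3 (2.88%). There were 3 with a pseudocount of 16 (10.6%) and 3 with probe sets averaged per gene (8.69%). Of the 3 other lists 5 genes were called, against 1 with no filter, 3 with probe sets averaged per gene, 11 with 6 separate arrays, 8 with array weights, 8 with the replicate block and 0 without eBayes, and 0 to 7 with a replicate left out. Over all genes 1185 were called, against 162, 2352 (6 separate arrays), 1810 (array weights), 2102 (replicate block) and 32 (no eBayes), and 4 to 1660 with a replicate left out. Where 1 control replicate remained, its spread was taken to be that of the other group. No filter adds genes at the floor on most arrays, and 6 separate arrays counts 2 near-alike arrays as independent. Whether either accounts for the changed counts was not tested. The labels link samples of the 2 groups only by replicate number. For samples with the same number the correlations of their deviations from the group means were -0.02, -8.19e-04 and -0.05. With 3 arrays a group, and control 2 and control 3 nearly alike, these values cannot show whether such samples were paired. The replicate block kept the 4 lower member calls. Signal over background limits Dbp, Nr1d1, Hlf and most Per3 probe sets, which lay near the floor. Cry2 was dim in replacement too (37.3, 27 and 25.3), and its values on all arrays lay under 64, so it left the test at that filter.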
